A study of Mus musculus with 24 samples.

Results

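Trpv6 and Trpv5 encode the epithelial calcium channels of the apical membrane, and both were chosen by name. They are 2 of the 21441 genes in each table of expression values of the mouse duodenum, ileum and colon. Trpv6 reached the level needed for a test, 1 FPKM (fragments per kilobase of transcript, scaled to the mapped fragments of the library) in at least 3 libraries of a region, in the duodenum and colon. Trpv5 reached it in no region.

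Poly(A) RNA of wild type C57BL6J mice was sequenced to find targets of the vitamin D receptor along the intestine. Treated mice received 3 injections of 1,25D3 (1,25-dihydroxyvitamin D3, the active hormone made from vitamin D), each of 1 ng per g of body weight, given 48, 24 and 6 h before tissue was taken, and were set against vitamin D-deficient mice, for which the labels give no treatment. The ages in the labels run from 10 to 14 with no unit, and both sexes occur in both groups. Duodenum and colon have 4 treated and 4 deficient libraries each, whereas the ileum has 4 treated and 3 deficient ones. Labels do not say that the libraries of a group came from separate animals, so p-values measure the spread between these libraries.

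Calcium crosses the absorptive cell of the intestine in 3 steps: it enters from the lumen through an apical channel, is carried through the cytoplasm by calbindin-D9k (gene S100g), and is pumped out on the blood side by the plasma membrane calcium pump PMCA1 (gene Atp2b1). TRPV6 is known as the intestinal entry channel, whereas its close relative TRPV5 is best known from the distal tubule of the kidney. The hormone acts through the vitamin D receptor (gene Vdr), a transcription factor that pairs with a retinoid X receptor. Cyp24a1, the enzyme that breaks the hormone down, is a classical target of the receptor.

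The channel genes lie side by side on chromosome 6. On the NCBIM37 assembly with the gencode vM1 annotation, Trpv6 spans bases 41570620 to 41586404 and Trpv5 spans bases 41602172 to 41630768, both on the minus strand, with 15767 bases between them. Their promoters, from 250 bases before to 50 bases after the annotated start, are shown because they are the regulatory sequence next to the start of each channel gene. They were taken from RefSeq on GRCm38.p6, a different assembly from the one used for the gene spans, and both are written 5′ to 3′ on the gene's strand. Capitals mark the half-site AGGTCA of nuclear receptors, or its reverse complement TGACCT.
Trpv6, chr6:41636356-41636655, minus strand: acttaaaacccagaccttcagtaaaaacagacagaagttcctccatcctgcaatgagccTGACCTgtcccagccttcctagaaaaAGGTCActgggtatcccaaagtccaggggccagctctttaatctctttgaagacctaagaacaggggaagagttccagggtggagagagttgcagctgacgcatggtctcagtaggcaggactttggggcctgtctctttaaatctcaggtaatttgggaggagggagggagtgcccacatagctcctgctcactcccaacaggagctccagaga
Trpv5, chr6:41680674-41680973, minus strand: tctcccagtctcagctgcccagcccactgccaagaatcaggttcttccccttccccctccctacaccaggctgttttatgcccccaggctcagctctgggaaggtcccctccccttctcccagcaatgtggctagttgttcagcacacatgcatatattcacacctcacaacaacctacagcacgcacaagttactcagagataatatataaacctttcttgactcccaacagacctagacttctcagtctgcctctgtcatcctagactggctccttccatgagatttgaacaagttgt
The Trpv6 promoter held the half-site 2 times, once on each strand, and the Trpv5 promoter held it 0 times. Of all 32851 promoters of this length, 16.3% held at least 1 and 1.79% at least 2. A strict pattern of a receptor element was also searched in the 5000 bases before each gene's start on NCBIM37, on both strands, as a pair of half-sites spaced by 3 bases. Each half-site could be AGGTCA, its close form AGTTCA, its close form GGGTCA or its close form GGTTCA. None was found for Trpv6, Trpv5, S100g or Cyp24a1, and 1.46% of 22330 protein-coding genes had one. As it found none even at Cyp24a1, a classical target of the receptor, the pattern cannot show that a gene lacks an element. Both searches are matches of letters in fixed windows and say nothing of the receptor's binding.

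Since the genes are relatives, reads from one could be given to the other. The aligned coding sequences of Trpv6 and Trpv5 were identical at 78.3% of 2125 positions. The longest stretch shared by the transcripts was 47 bases, and it lies inside both coding sequences.
Shared stretch, bases 788 to 834 of the Trpv6 transcript and 589 to 635 of the Trpv5 transcript: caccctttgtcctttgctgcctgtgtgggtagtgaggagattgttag
Of the 30-base windows of the Trpv6 transcript, 1.86% were also in Trpv5, and of its 50-base windows 0% were. The sources used here do not say how reads that match both genes were divided.

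Libraries are named by group and table column. Columns with serial numbers are treated 1 and deficient 1, 2 and 3 (the last 3 are headed Vehicle), and columns with 4-digit numbers are treated 3xD5711, 3xD5720 and 3xD5734 and deficient minusD5718, which the ileal table does not hold. The naming scheme is thus uneven between the groups, and it moved with other measures. Whole reads recovered from the values came to between 12241943 and 15270661 per library in the 4-digit scheme and between 18855694 and 31096106 in the serial one, over all regions. In the duodenum, 11 of 12 stomach markers were in the table and their summed level was 6264 to 12387 FPKM in the 4-digit libraries against 42.6 to 225 in the serial ones. The ileum markers summed to 4638 to 12500 FPKM in the ileum against at most 1656 in the duodenum and 1868 in the colon, and the colon markers to 4170 to 11075 FPKM in the colon against at most 328 and 775 in the duodenum and ileum. Summed, the duodenum markers did not set the duodenum (848 to 1367 FPKM) apart from the colon (620 to 2177 FPKM). Dmbt1 averaged 1040 FPKM in the treated and 574 FPKM in the deficient colon, against 314 and 184 FPKM in the duodenum. Pdx1 was at least 22.4 FPKM in every duodenal library and at most 0.727 FPKM in every colonic one. For Gata4 these limits were 26.5 and 0.629 FPKM. Onecut2, Cybrd1, Gip and Cck also lay higher in every duodenal library than in every colonic one. Dmbt1, Slc40a1, Sct and Cckbr did not. Exocrine pancreas markers, 14 genes, summed to 1149 to 39607 FPKM in treated and 9662 to 64865 FPKM in deficient duodenal libraries, and to 166 to 34990 and 244 to 6349 FPKM in the colonic ones, and their part in the results was not tested. The 13 enterocyte markers summed to 16507 to 22538 FPKM in the treated and 15415 to 20620 FPKM in the deficient duodenum, and to 2307 to 3260 and 2367 to 3156 FPKM in the colon, with 0 markers past the threshold. In such bulk tissue, fewer cells of a type and less RNA per cell cannot be told apart.

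Colonic Trpv6 was higher in the treated libraries than in the deficient ones, and the groups did not overlap. Among treated libraries it was listed at 57.2 FPKM in treated 1, 69.5 in 3xD5711, 35.8 in 3xD5720 and 111 in 3xD5734. Among deficient libraries it was listed at 1.22 FPKM in minusD5718, 4.83 in deficient 1, 4.37 in deficient 2 and 0.0461 in deficient 3, where the value stood for 4 reads. The lowest treated library was thus 7.41 times the highest deficient one, and deficient 3 stood well below the other deficient libraries. Group means were 68.4 ± 31.7 FPKM (SD, n = 4) and 2.62 ± 2.35 FPKM (SD, n = 4), a ratio of 26.1.

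The difference in the colon was 4.46 ± 0.56 (SE) on the log2(FPKM + 1) scale, which understates changes of low values. Its limma p was the second smallest of 12746 colonic genes, yet it did not pass the threshold of 0.05 (limma adjusted p = 0.109). No colonic gene passed in either direction (0%), while 746 had an unadjusted p under 0.05. The exact permutation test over the libraries gave p = 0.0286, the smallest that 4 against 4 allows. For comparison, treated libraries lay fully above deficient ones in 2.22% of the genes tested. Within the schemes the difference was 4.18 among the serial libraries (1 treated against 3 deficient) and 4.90 among the 4-digit ones (3 against 1) on the same log2 scale, each resting on a single library in one group and not tested.

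In the duodenum the same channel was also higher in every treated library than in every deficient one, but the gap between the groups was small. Treated libraries were listed at 5.10 FPKM in treated 1, 13.5 in 3xD5711, 9.72 in 3xD5720 and 62.5 in 3xD5734. Deficient libraries were listed at 5.01 FPKM in minusD5718, 0.147 in deficient 1, 1.02 in deficient 2 and 0.0479 in deficient 3. The lowest treated library and the highest deficient one were nearly level, at a ratio of 1.02, and 3xD5734 stood far above the other treated libraries. Duodenal means were 22.7 ± 26.8 FPKM (SD, n = 4) against 1.56 ± 2.34 FPKM (SD, n = 4), a ratio of 14.6.

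On the log2(FPKM + 1) scale the duodenal difference was 3.00 ± 0.76 (SE), and it did not pass (limma adjusted p = 0.483). In this region 3 of 11734 genes passed (0.0256%), and treated libraries lay fully above deficient ones in 1.99%. The exact permutation p was 0.0286, again the smallest possible. Within the naming schemes the difference was 2.18 among the serial libraries and 1.84 among the 4-digit ones, each again with a single library in one group, and with the scheme in the fit it was 2.01 (limma adjusted p = 0.737). The 4-digit duodenal libraries, which held the stomach markers, had 5.01 to 62.5 FPKM of Trpv6 and the serial ones 0.0479 to 5.10 FPKM; the part of those markers in the result was not tested.

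Ileal Trpv6 was close to the limit of detection. It was listed at 0.0106 FPKM in treated 1, 0.506 in 3xD5711, 0.241 in 3xD5720 and 0.193 in 3xD5734, which stood for 1, 24, 10 and 10 reads. The deficient libraries had 0.0150 FPKM in deficient 1, 0.0356 in deficient 2 and 0.0494 in deficient 3, or 1, 4 and 4 reads. The lowest of all 7 libraries was a treated one, so the groups overlapped. Ileal means were 0.238 ± 0.204 FPKM (SD, n = 4) and 0.0334 ± 0.0173 FPKM (SD, n = 3), a ratio of 7.13 that rests on 45 treated and 9 deficient reads.

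As Trpv6 lay under the filter in the ileum, only the permutation test applies there. The difference was 0.25 on the log2(FPKM + 1) scale (exact permutation p = 0.229, where 4 against 3 cannot go below 0.0571). In this region 0 of 12149 genes passed with limma (0%), with 709 at an unadjusted p under 0.05. The split followed the naming scheme: serial libraries had 0.0106 to 0.0494 FPKM and 4-digit ones 0.193 to 0.506 FPKM. Among the serial libraries alone the log2 difference was -0.03, and all 4-digit ileal libraries were treated, so scheme and treatment cannot be told apart there.

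**Figure D1:**
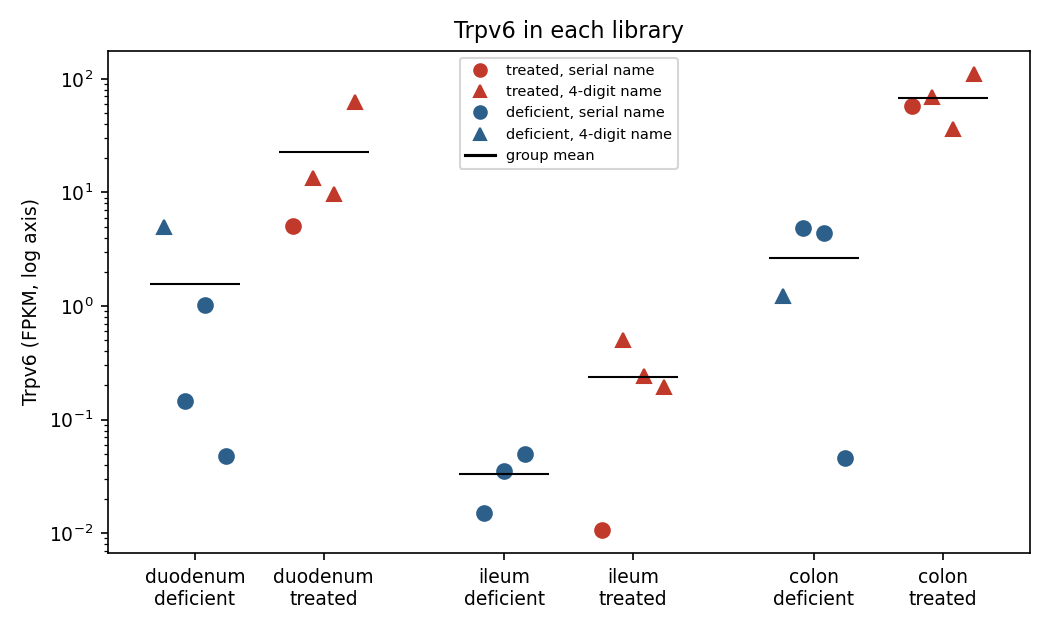
Trpv6 level (FPKM, log axis) in each library of the 3 regions, by group; circles are libraries with serial names, triangles those with 4-digit names, and black lines group means. Treated colonic libraries (35.8 to 111 FPKM) lie well above the deficient ones (0.0461 to 4.83 FPKM), the duodenal groups nearly touch at 5.10 and 5.01 FPKM, and the ileal groups overlap below 1 FPKM.

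Ordered by mean, the Trpv6 level ran from the treated colon (68.4 FPKM) through the treated duodenum (22.7), deficient colon (2.62), deficient duodenum (1.56) and treated ileum (0.238) to the deficient ileum (0.0334). The tables were normalized separately, so this order is a description. Neighbours in it overlapped, except that the lowest treated duodenal library (5.10 FPKM) lay just above the highest deficient colonic one (4.83 FPKM). The deficient colon and duodenum each spanned about the same wide range, with a highest library 105 times the lowest in both. Among the treated libraries the span was 12.3 times in the duodenum and 3.10 times in the colon. Deficient 3 was the lowest deficient library and 3xD5734 the highest treated one in both regions.

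Whether the response differed between regions was tested as a difference of within-region differences, in one limma fit of all 23 libraries. Ileum minus colon gave -4.21 ± 0.93 (SE) on the log2(FPKM + 1) scale for Trpv6, which did not pass (limma adjusted p = 0.502). Duodenum minus ileum gave 2.76 ± 0.93 (limma adjusted p = 0.865) and duodenum minus colon gave -1.45 ± 0.90 (limma adjusted p = 1.00). For each of the 3 contrasts 0% of genes passed. Trpv6 entered this fit through the duodenum and colon, and with 1 added to values below 1 FPKM its ileal difference is held near 0, so the contrasts with the ileum largely restate its low level there.

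Trpv5 was barely detected anywhere in these libraries. In the colon the treated libraries had 1 read in treated 1, 3 in 3xD5711, 2 in 3xD5720 and 2 in 3xD5734, and the deficient ones had 1 read in deficient 2 and 0 in the other 3. The treated values, 0.0152 to 0.0768 FPKM, all lay above the deficient ones, the highest of which was 0.0138 FPKM. That gap is between 1 read in a treated library and 1 read in a deficient one, which differ in what a read is worth.

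Summed over the colon, there were 8 treated and 1 deficient Trpv5 reads, a rate ratio of 10.7 per recovered read (95% exact interval 1.44 to 476, covering counting error only). The log2 difference was 0.06 (exact permutation p = 0.0286, the smallest possible). Treated libraries also lay fully above deficient ones in 1.03% of the 5457 colonic genes under the filter that had any value above 0. Without any single library the exact permutation p was 0.0571, the smallest that 4 against 3 allows. Fitted with no filter on low values, Trpv5 did not pass (limma adjusted p = 0.868).

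Duodenal Trpv5 amounted to 1 read each in treated 1, treated 3xD5734 and deficient minusD5718 and 0 in the other 5 libraries (exact permutation p = 1.00). In the ileum it was at 0 in all 7 libraries, which allows up to 3 of the 69305216 recovered reads of the treated group and 3 of the 75151075 of the deficient group. Set against its neighbour in the treated colon, Trpv5 had a mean of 0.0479 ± 0.0257 FPKM (SD, n = 4) where Trpv6 had 68.4 FPKM. Of the reads of both channels in the treated colon, Trpv5 made up 0.0545% (95% exact Clopper-Pearson interval 0.0235% to 0.107%).

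Around the pair, the 3 annotated genes on each side that the tables hold were read in the same way. On the Trpv6 side, Ephb6, which encodes a member of the Eph receptor family, ends at base 41570508, next to the end of Trpv6. It had 1.65 ± 0.65 FPKM in the treated and 1.31 ± 0.54 FPKM in the deficient colon (SD, n = 4 each), a log2 difference of 0.20 ± 0.24 (SE, limma adjusted p = 0.933). Beyond it lie the trypsinogen genes Prss2 and Prss1. Prss2, one of the pancreas markers, ran from 0.336 to 3715 FPKM in the treated colon and from 1.06 to 478 FPKM in the deficient colon, and Prss1 stayed at or under 1.71 FPKM in every library.

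On the Trpv5 side, 1700034O15Rik and Kel (the Kell blood group gene) had a few reads, mostly in treated libraries. 1700034O15Rik had 2, 8, 3 and 2 reads in the colonic libraries treated 1, 3xD5711, 3xD5720 and 3xD5734, against 0 in all 4 deficient ones, and 6 treated against 0 deficient reads in the duodenum. Kel had 3, 3, 0 and 2 reads in the same treated colonic libraries against 0 in the deficient ones, and 9 against 1 in the duodenum. In the ileum 1700034O15Rik was at 0 in all 7 libraries and Kel was above 0 only in deficient 1 (0.0177 FPKM). The odorant receptor gene Olfr459, the third gene on this side, was listed at 0 in every library. These genes lay under the filter, so no difference among them was tested with limma. For comparison, treated libraries lay fully above deficient ones in 1.03% of the 5457 colonic genes under the filter with any value above 0.

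**Figure D2:**
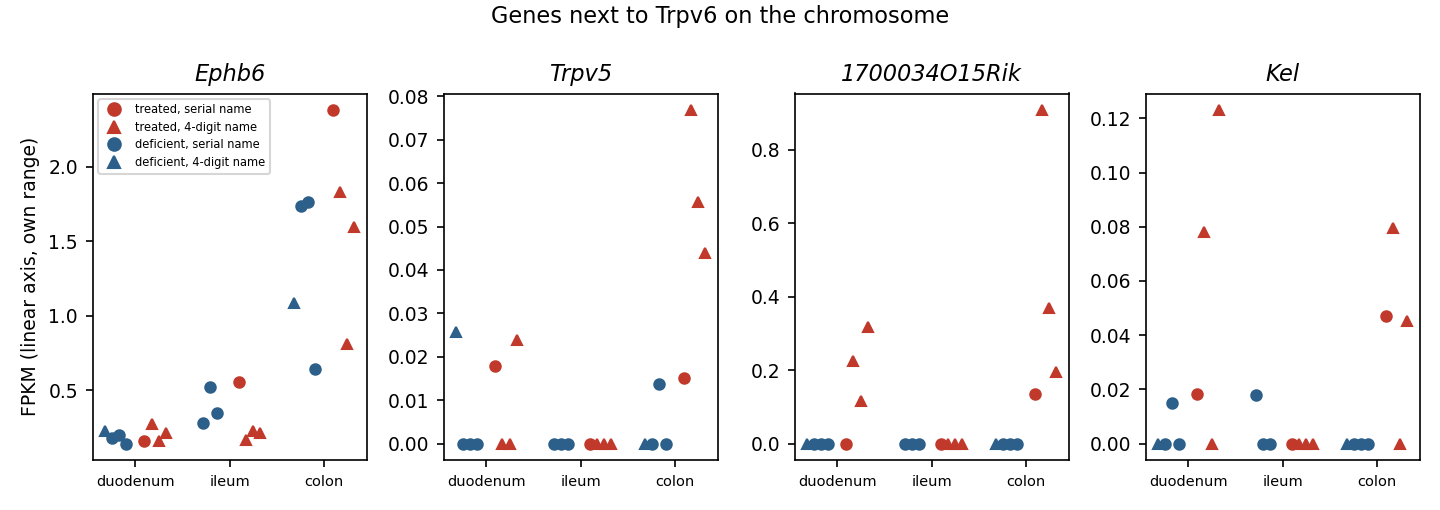
Levels (FPKM, linear axes, each with its own range) of Ephb6, Trpv5, 1700034O15Rik and Kel in each library by region; circles are serial and triangles 4-digit names. In the colon 1700034O15Rik is above 0 in all 4 treated libraries and in 0 of the 4 deficient ones, at no more than 0.908 FPKM. Treated libraries lay fully above deficient ones in 1.03% of colonic genes under the filter with any value above 0. Ephb6 overlaps between the groups.

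The transcellular route was read from a list of 12 genes, which includes Trpv6 and Trpv5. Of these 6 were tested in the duodenum, 4 in the ileum and 5 in the colon, and 0 passed in any region. Their median log2 difference was 0.40, 0.11 and 1.04 in the duodenum, ileum and colon, beside 0.01, 0.01 and -0.01 over all genes tested. Trpv6 itself, at 3.00 and 4.46, is counted in the duodenal and colonic medians, so they do not describe the later steps alone. In the colon Trpv6, S100g and Atp2b1 were the 3 of 5 tested members whose groups did not overlap, with treated above deficient (2.22% of all colonic genes tested), beside Trpv5 under the filter.

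S100g, the calbindin carrier, was listed in the treated colon at 5542 FPKM in treated 1, 4329 in 3xD5711, 1898 in 3xD5720 and 4367 in 3xD5734. The deficient colon had 131 FPKM in minusD5718, 198 in deficient 1, 394 in deficient 2 and 21.2 in deficient 3. The treated libraries were all higher, by 4.93 ± 0.78 (SE, log2 scale, limma adjusted p = 0.275). Its duodenal groups overlapped, because treated 3xD5720 (3146 FPKM) lay below deficient minusD5718 (3873 FPKM), and the log2 difference was 2.41 ± 0.75 (SE, limma adjusted p = 0.499). Ileal S100g reached 1339 FPKM in deficient 2, against 16.5 and 29.6 FPKM in the other deficient libraries, and differed by 2.87 ± 1.41 (SE, limma adjusted p = 0.706).

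Atp2b1, the exit pump, was evenly expressed within the colonic groups. The treated colon had 103 FPKM in treated 1, 119 in 3xD5711, 108 in 3xD5720 and 127 in 3xD5734, and the deficient colon had 67.8, 52.2, 53.9 and 47.7 FPKM in minusD5718 and deficient 1, 2 and 3. The groups were apart, with a log2 difference of 1.04 ± 0.13 (SE, limma adjusted p = 0.109). In the duodenum and ileum the groups of Atp2b1 overlapped, with log2 differences of 0.64 ± 0.32 (limma adjusted p = 0.545) and 0.33 ± 0.16 (limma adjusted p = 0.706). Calb2, the calcium-binding protein calretinin, and Atp2b4, another plasma membrane pump, had log2 differences between -0.43 and 0.15 in the 3 regions.

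**Figure D3:**
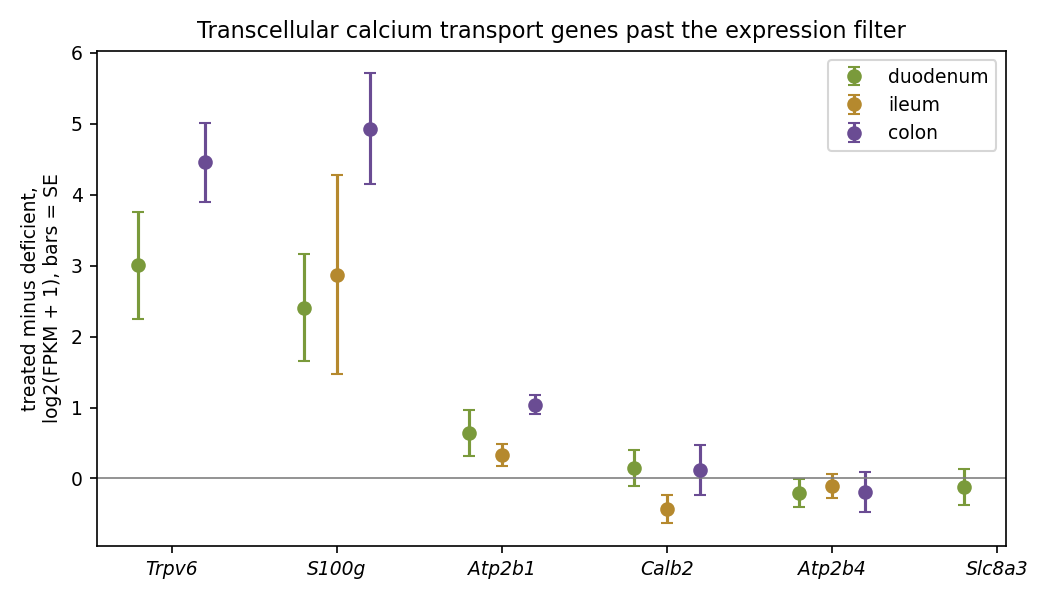
Difference of treated minus deficient on the log2(FPKM + 1) scale for the members of the transcellular calcium list that passed the expression filter, by region; bars are standard errors. Trpv6, S100g and Atp2b1 have colonic differences of 4.46, 4.93 and 1.04, and Calb2, Atp2b4 and Slc8a3 lie between -0.43 and 0.15; Trpv6 has no ileal point because it was under the filter there.

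The channel and the carrier ordered the deficient duodenal libraries alike. Both were highest there in minusD5718, followed by deficient 2, deficient 1 and deficient 3, and so was Atp2b1. In the treated duodenum, in both colonic groups and in both ileal groups the orders of Trpv6 and S100g differed. Over the 8 duodenal libraries, Pearson's r of Trpv6 with S100g was 0.806, rank 216 of 11733 genes. Over the 8 colonic libraries it was 0.978, the highest of 12745 genes. These libraries share their 2 groups, so r describes the split between groups as much as the spread within them: with the group means removed, a ranking added for the colon after the data were seen, it was 0.535 in the duodenum, where S100g ranked 1233, and 0.874 in the colon, where it ranked 35.

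**Figure D4:**
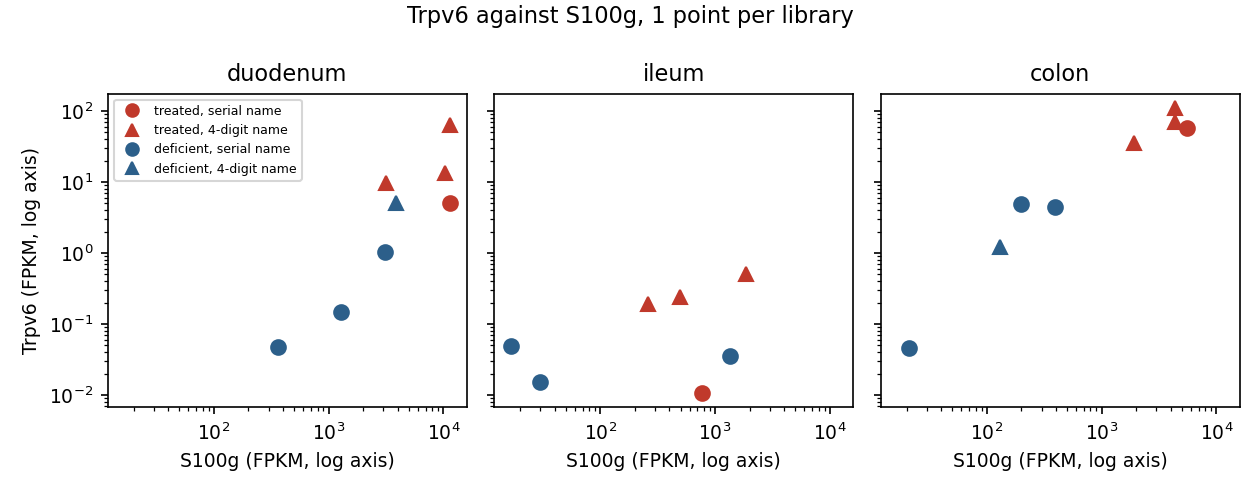
Trpv6 against S100g (both FPKM, log axes), 1 point per library, by region; colours are groups and symbols naming schemes. In the colon the libraries run from deficient 3 (0.0461 and 21.2 FPKM) up to the treated ones, whereas in the ileum Trpv6 stays below 1 FPKM while S100g runs from 16.5 to 1869 FPKM.

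After S100g, the genes most like Trpv6 in the colon were H2-Q1 (r = 0.976), 5033404E19Rik (0.956), Slc30a10 (0.948), a metal transporter gene, and Chodl (0.947). In the duodenum they were Pmm1 (0.976), Vps25 (0.975), 2300009A05Rik (0.960), Sst (0.959), which encodes somatostatin, and Pus7l (0.954). With the duodenal group means removed they were Acadm (0.980), Tada3 (0.971), Krt7 (0.963), Smcr7l (0.962) and Pmm1 (0.960). In the added colonic ranking with group means removed they were Baiap3 (0.971), Grina (0.9545), 1700030K09Rik (0.948), Phf21b (0.944) and Rab6b (0.942). Cyp24a1 had an r of 0.0172 in that ranking, rank 6105 of 12745. Each value is over 8 libraries and the result of a search over all genes tested in the region.

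Vdr, the receptor gene, was expressed in all regions at 74.8 to 119 FPKM in mean level, and its log2 differences of -0.30, -0.09 and 0.05 in the duodenum, ileum and colon did not pass (limma adjusted p = 0.665, 0.896 and 0.976). The ileum, where Trpv6 was lowest, had Vdr at 74.8 ± 14.3 FPKM (SD, n = 4) in its treated libraries. Cyp24a1 had 40.3, 543, 6.12 and 5.34 FPKM in ileal 3xD5711, 3xD5720, treated 1 and 3xD5734. The deficient ileal libraries had 0.0157 to 0.153 FPKM of it (log2 difference 4.90 ± 1.40, limma adjusted p = 0.706). Cyp24a1 rose in the duodenum, by 7.91 ± 0.59 (SE, log2 scale, limma adjusted p = 0.00340). In the colon it averaged 189 ± 165 FPKM (SD) in the treated and 0.0303 ± 0.0343 FPKM in the deficient libraries. The colonic groups did not overlap, as in 2.22% of colonic genes tested with treated above deficient, but the difference of 6.28 ± 1.26 did not pass (limma adjusted p = 0.456). Of the 10 genes of vitamin D reception and metabolism, 7, 6 and 6 were tested in the duodenum, ileum and colon. No other tested gene of that list passed, beside 0.0256%, 0% and 0% of all genes tested. On whole reads with voom, a limma method for counts, Cyp24a1 did not pass in the duodenum (limma adjusted p = 0.149).

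In the treated libraries Trpv6 did not follow the order of Cyp24a1. Colonic treated 1 had the lowest Cyp24a1 of its group (2.67 FPKM, against 108 to 370 in the others) but 57.2 FPKM of Trpv6. In the duodenum, 3xD5711 was lowest for Cyp24a1 (64.9 FPKM) and second highest for Trpv6 (13.5 FPKM). Trpv6 and Cyp24a1 were both highest in duodenal 3xD5734, at 62.5 and 641 FPKM.

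Partners of the channels were read from a list of 16 genes, of which 15 were tested in each region and 0 passed, with median log2 differences of 0.01, 0.01 and -0.09 in the duodenum, ileum and colon. The largest were those of Sgk1, a kinase known to raise channel activity at the membrane, at 1.49 ± 0.67 in the duodenum (limma adjusted p = 0.528) and 1.41 ± 0.42 in the ileum (limma adjusted p = 0.706). A fit that included the naming scheme gave 0.42 and 0.26 for them. S100a10, a partner of annexin that helps bring the channels to the membrane, differed by 0.37 ± 0.20 in the duodenum. Ileal Fkbp4, a chaperone-linked immunophilin, differed by -0.39 ± 0.14. In the colon, Bspry, with the smallest p of the list there, differed by -0.29 ± 0.12, and Sgk1 by 0.79 ± 0.61 (limma adjusted p = 0.898).

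Other channels were read beside them. Of 26 other TRP channel genes 11 were tested in each region and 0 passed, with medians of -0.14, -0.08 and -0.01. Those with the smallest p were Mcoln2 (-0.40 ± 0.11) and Trpm4 (-0.47 ± 0.18) in the duodenum, Trpm7 (0.34 ± 0.17) and Trpm4 (-0.48 ± 0.29) in the ileum, and Trpv3 (-0.78 ± 0.27) and Trpm4 (-0.26 ± 0.14) in the colon. Of 13 genes of other calcium entry through the plasma membrane, 11 were in the tables, and 6, 6 and 7 were tested in the duodenum, ileum and colon, of which 0 passed. Orai1, the pore of store-operated entry, had 24.3 ± 3.32 FPKM in the treated and 14.6 ± 1.39 FPKM in the deficient duodenum (SD, n = 4 each). Its treated libraries lay fully above the deficient ones, as in 1.99% of the duodenal genes tested. The log2 difference was 0.69 ± 0.12 (limma adjusted p = 0.408), the smallest p of its list there. Its colonic difference was 0.21 ± 0.12, beside 4.46 ± 0.56 for Trpv6.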

How the data were processed

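The authors deposited FPKM values per gene symbol, 21441 genes per table, in tables of 8 and 7 libraries per region. Per the labels' protocols, CLC Genomics Workbench mapped the reads, and mm9, kallisto 0.45.0, DESeq 1.14.0 and DESeq2 are named without a role in the submitters' processing notes. The 8-library ileum table repeats the duodenum table in 171528 of 171528 values, so its 8 columns were not used, and the ileum was analysed as 4 against 3 rather than the planned 4 against 4. Columns headed Vehicle were taken as the deficient group, since the tables are named for deficient against 3xD and hold no other group. Columns carry no replicate numbers of the labels, so no single library could be tied to the sex or age in the labels. By the levels of Xist against Ddx3y, 2 of 4 treated libraries in each region, 1 of 4 deficient ones in the duodenum and colon and 0 of 3 in the ileum had more Xist, and the part of sex in the results was not tested.

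Tests took the genes that reached 1 FPKM in 3 or more libraries and used the log2(FPKM + 1) scale and limma 3.58.1 (trend, R 4.3.3), two-sided, with Benjamini-Hochberg adjustment over all genes at 0.05. Single genes had two-sided exact permutation tests over the libraries. Whole reads were recovered from the steps of the deposited FPKM values for 82.7% of genes above 0 in at least 3 libraries of a region, within 0.0001 of a read. The limma and read-recovery steps were tested on simulated data. Recovered reads per library ran from 13054310 to 30190915 (duodenum), 13158994 to 31096106 (ileum) and 12241943 to 24158299 (colon). Intervals and limits of detection cover counting error only, as reads without molecular identifiers are not independent molecules.

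Deviations from group means of libraries with the same column number correlated over 0.1 in 7 of 7 duodenum and ileum pairs, 7 of 8 duodenum and colon pairs and 6 of 7 ileum and colon pairs. Libraries of different numbers were not compared, and those of one number share the naming scheme, so pairing by number was not established. The number was tried as a block in the fit of all regions. Named were the channels, S100g, Cyp24a1 and Vdr, list members that passed or otherwise had the 2 smallest p per region, the 3 genes on each side of the pair, and the 5 genes most like Trpv6. One list member that this rule names is not reported here. Atp2b4 and the values of Atp2b1 in the duodenum were added to complete the calcium route. Colonic Sgk1 and single duodenum markers were added for comparison between regions. The members, lists and tests were chosen with earlier results of these data known. Alternatives covered the pseudocount (0.1, 0.5), the filter (none, 5 FPKM), quantile and median-ratio rescaling, the naming scheme, voom, the 7-library tables and each library left out. Voom without a filter was chosen after seeing the data.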

Additional observations from a re-analysis of the deposited data

Results flagged for a closer look

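In the treated duodenum, Trpv6 in 3xD5734 (62.5 FPKM) stood far from the other 3 libraries by the Dixon gap. Trpv5 was flagged in the deficient duodenum, at 0.0258 FPKM in minusD5718, and in the deficient colon, at 0.0138 FPKM in deficient 2; each of these values is 1 read where the other 3 libraries had 0. A group with 1 read in a single library always meets this measure, so the Trpv5 values carry no more than that. For normally distributed values, chance flags about 1 in 20 groups. The measure was taken on FPKM and not on the log2 scale of the tests, and whether the Trpv6 values are normally distributed was not tested.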

How the results depend on the processing

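Trpv6 kept its direction and its side of the threshold in 18 of 18 alternatives in the duodenum (log2 2.01 to 5.34), 14 of 14 in the ileum (0.15 to 1.60) and 18 of 18 in the colon (3.96 to 5.85), with adjusted or exact p of at least 0.166, 0.1 and 0.0598. In the ileum the side of the threshold says little of stability, since the exact test of 4 against 3 or fewer libraries cannot pass 0.05. Only the limma and voom fits with no filter did not use that test there. The genes called numbered 1 in the duodenum with a pseudocount of 0.1, 1 with 5 FPKM, 1 with the naming scheme, 0 with voom and 5 with voom and no filter, and 1 to 4 without any one library. In the ileum they numbered 1 with no filter and 8 with voom and no filter, and in the colon 2 with the naming scheme and 0 to 3 without any one library.

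Trpv5 in the duodenum ran from -0.000689 to 0.0149 without any one library, and was below 0 without treated 3xD5734. In the colon it was 0.0622 with no filter (limma adjusted p = 0.868), 2.23 with voom and no filter (limma adjusted p = 0.794), 0.0607 in the 7-library table (exact p = 0.0571) and 0.0490 to 0.0773 without any one library; 4 against 3 cannot pass 0.05, and the cause of the other changes was not tested.

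With the replicate block the response contrasts of Trpv6 were 2.96 (duodenum minus ileum), -1.45 (duodenum minus colon) and -4.41 (ileum minus colon), with limma adjusted p of 0.660, 0.999 and 0.287, and no call changed. No paired analysis was possible within a region, because the columns carry no replicate number of the labels. Of the other named genes, Vdr changed sign in the ileum with the naming scheme (0.042) and without treated 3xD5720 (0.061) or deficient 1 (0.072; range without any one library -0.28 to 0.072), and in the colon with quantile values (-0.031), the scheme (-0.13), voom (-0.0031), voom with no filter (-0.0029) and without treated 3xD5734 (-0.024) or deficient 3 (-0.12; range -0.12 to 0.15). Cyp27a1 in the ileum (-0.032, scheme) did too. Cyp24a1 in the duodenum did not pass with voom with or without the filter (limma adjusted p = 0.149 and 0.0666), and in the colon it passed without treated 1 (limma adjusted p = 0.000500). The cause was not tested. The scheme fit and filtered voom give no value for genes under the filter, and voom none for Trpv5 in the ileum. At the depth of these libraries, ileal Trpv6 and all Trpv5 values rest on 0 to 24 reads.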
